A study of Mus musculus with 13 samples.

Results

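Thymic fibroblasts (FBs) were followed through 10 genes measured by bulk RNA-seq in CD45- thymic stroma cells, the nonhematopoietic fraction of the thymus. Pdgfra, Pdgfrb, Dcn, Lum and Gsn mark FBs in general, and Dpt, Pi16, Dpp4, Mfap5 and Clec3b mark the FBs of the capsule and the adventitia (capsFBs). The genes were picked by name and not by a measured difference, though with earlier results of these data known. Each matched 1 of the 53379 genes of the count table, and all 10 were among the 19984 genes that passed the filter on low counts and were tested. All mice were wild type C57BL/6 and 2 months old, and polyA RNA was sequenced. The 4 steady-state libraries came from mice labelled untreated, which the column names of the table call PBS controls of day 1, day 4 or day 7, and each library is named here by that day and replicate. The other libraries were made after total body irradiation at a sublethal dose (SL-TBI in the labels, TBI below), 3 each at day 1, day 4 and day 7. The study's methods speak of the bulk libraries as biological replicates, while the labels do not say whether each was a separate mouse, so p-values measure the spread between these libraries, which may be in part technical.

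FBs build and anchor the connective tissue of an organ. In the thymus they form the capsule and the septa that enter it with the vessels, and they lie among the epithelial cells of the medulla. They respond to platelet-derived growth factors (PDGFs) through receptors on their surface, deposit collagen fibrils with the small proteoglycans that coat them, and supply growth factors to thymic epithelial cells (TECs). FBs of the capsule and of vessel adventitia share a set of surface and matrix proteins in many organs. In bulk RNA, fewer cells of a type and less RNA per cell cannot be told apart, so every level below is a level of the whole CD45- fraction.

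Total counts ran from 15721866 to 52056896 per library (median 44078906), and the lowest count of any of the 10 genes in any library was 1873, so counting error was small beside the spread between libraries. The level of a gene is given as CPM, the count scaled to 1 common library size, after TMM normalization, which evens out differences in composition. The fraction held other cells too. The summed level of 10 TEC markers ran from 875 to 4815 CPM and that of 8 endothelial cell markers from 1020 to 1672 CPM over all 13 libraries. The summed level of 14 thymocyte markers lay between 312.7 and 1026 CPM at steady state, 144.8 and 183.1 CPM at day 1, and 32.05 and 49.52 CPM at day 4. At day 7 it was 272.7 CPM in replicate 1, 2764 CPM in replicate 3 and 6501 CPM in replicate 2. Red cell precursor RNA moved with the conditions as well. The summed level of 8 erythroid markers was 1567 to 3590 CPM at steady state, 292.9 to 976.6 CPM at day 1, 5.234 to 8.39 CPM at day 4 and 286 to 794.5 CPM at day 7. Of the 8, 5 were lower at day 1 than at steady state, 4 lower at day 4 than at day 1 and 5 higher at day 7 than at day 1 by edgeR. The summed level of 8 neutrophil markers was 5.126 to 31.01 CPM at steady state, 18.81 to 43.13 CPM at day 1, 4.647 to 6.998 CPM at day 4 and 1.641 to 11.25 CPM at day 7, and 3 of the 7 tested were lower at day 7 than at day 1. The part of erythroid and neutrophil RNA in the levels of the 10 genes was not tested. Column names close with a tag that no source used here explains. By the letters that open the tag (k3, kk or neither), PBS day 1 and PBS day 7 replicate 1 fell into the family with neither start, PBS day 4 into k3 and PBS day 7 replicate 2 into kk. The day 1 libraries were 2 of neither start and 1 of kk, those of day 4 were 1 of neither start and 2 of k3, and those of day 7 were 2 of k3 and 1 of kk.

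In the GRCm38 build of the deposited counts, the general genes are Pdgfra (ENSMUSG00000029231, chr5:75152292-75198215, + strand), Pdgfrb (ENSMUSG00000024620, chr18:61045150-61085061, +), Dcn (ENSMUSG00000019929, chr10:97479609-97518143, +), Lum (ENSMUSG00000036446, chr10:97565128-97572703, +) and Gsn (ENSMUSG00000026879, chr2:35256380-35307892, +). Dcn and Lum are neighbours. The capsFB genes are Dpt (ENSMUSG00000026574, chr1:164796644-164824266, +), Pi16 (ENSMUSG00000024011, chr17:29318877-29329413, +), Dpp4 (ENSMUSG00000035000, chr2:62330073-62412231, -), Mfap5 (ENSMUSG00000030116, chr6:122505845-122529290, +) and Clec3b (ENSMUSG00000025784, chr9:123150946-123157432, +). Reads were counted over exons. Of the exonic bases of Pdgfra 6.5% and of Dpp4 3.67% also lie in another annotated gene, and those of the other 8 genes lie in no other gene.

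**Figure D1:**
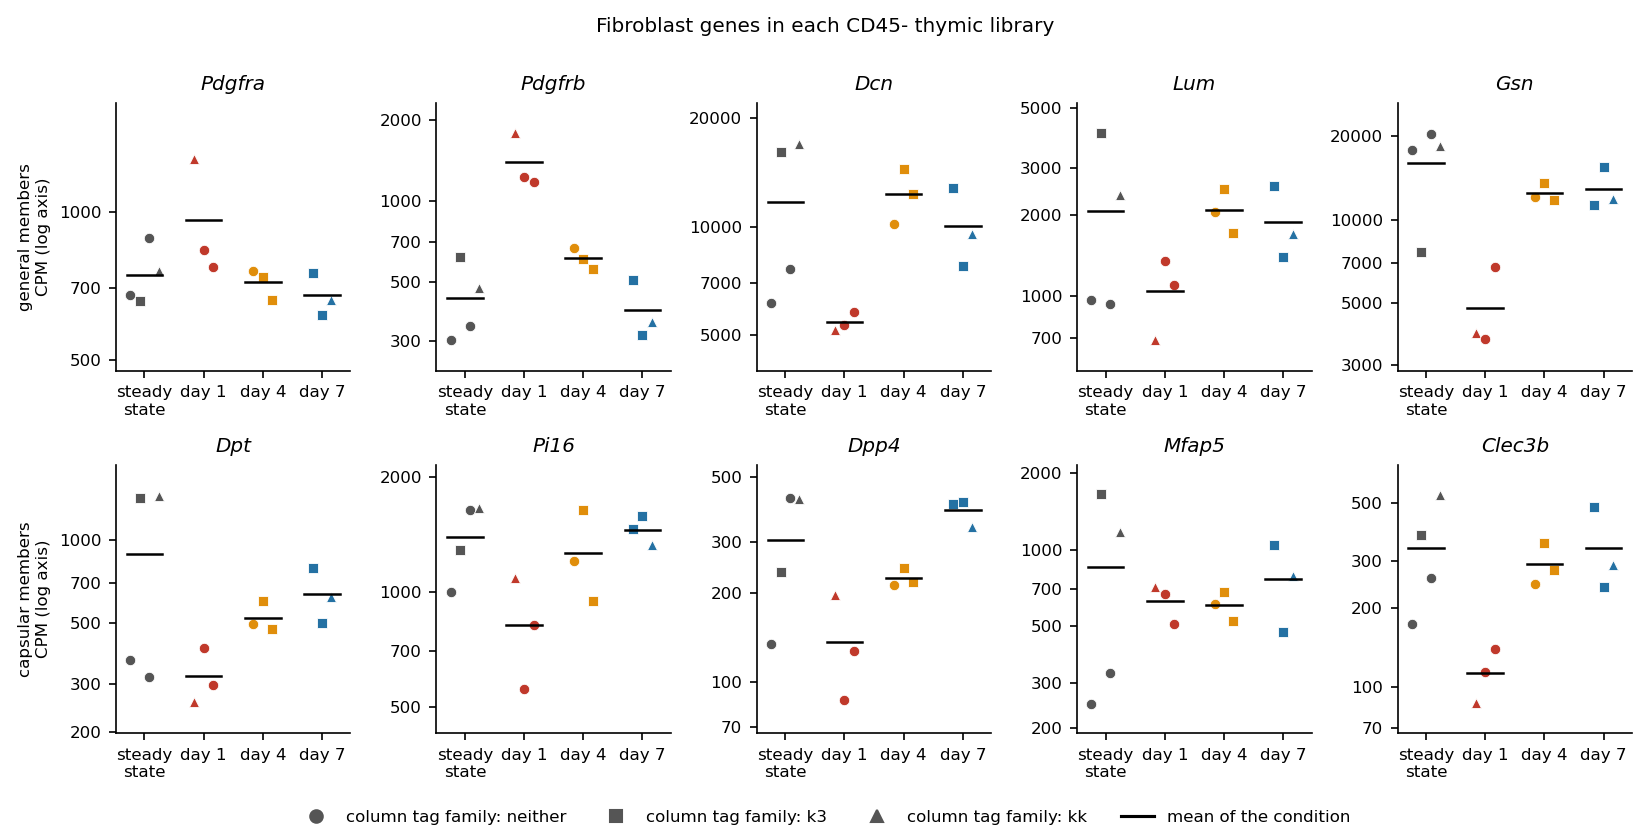
Level of each gene in every library, in CPM on a log axis, with general FB genes in the upper row and capsFB genes in the lower row; a point is a library, its shape the family of its column tag, and a bar the mean of the condition. Pdgfrb at day 1 sits between 1175 and 1780 CPM, above every other library, while Gsn at day 1 sits between 3702 and 6775 CPM, below every other library.

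At day 1 the 2 PDGF receptors parted. Pdgfrb, the receptor that FBs share with pericytes, stood at 303.0, 618.1, 341.0 and 473.3 CPM at steady state (PBS day 1, PBS day 4, PBS day 7 replicate 1 and PBS day 7 replicate 2, an order kept below) and at 1780, 1225 and 1175 CPM at day 1 (replicates 1 to 3). All 3 day 1 libraries lay above all 4 steady-state libraries. Pdgfrb rose 3.21-fold (log2 fold change of 1.68, SE 0.28, 95% interval 1.08 to 2.29, adjusted p = 0.00547, edgeR quasi-likelihood test with Benjamini-Hochberg adjustment over all genes tested, as for every adjusted p below). Pdgfra, the receptor most widely used to sort FBs, stood at 677.0, 659.3, 883.7 and 756.2 CPM at steady state and at 1282, 836.9 and 770.9 CPM at day 1. The groups overlapped, with day 1 replicate 1 alone above the others, and the log2 fold change was 0.37 (95% interval -0.10 to 0.85, adjusted p = 0.411).

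The level of Pdgfrb then came down. At day 4 it was 667.4, 609.6 and 558.1 CPM, and at day 7 it was 506.3, 317.0 and 353.1 CPM. The day 4 libraries lay below every day 1 library. They overlapped with steady state only through PBS day 4 (618.1 CPM) and lay above PBS day 1 and both PBS day 7 libraries (303.0 to 473.3 CPM). Those of day 7 lay below every library of day 4. Pdgfrb fell from day 1 to day 7 by 1.83 on the log2 scale (SE 0.31, adjusted p = 0.00588). The difference of day 4 from day 1 was -1.19 (adjusted p = 0.0846), and that of day 7 from day 4 was -0.64 (adjusted p = 0.274). Against steady state the log2 fold change was 0.50 at day 4 (95% interval -0.11 to 1.10) and -0.15 at day 7 (95% interval -0.75 to 0.46), and neither passed the test. Pdgfra lay between 616.3 and 758.1 CPM at days 4 and 7, below every day 1 library, with log2 fold changes from day 1 of -0.42 and -0.51 (adjusted p = 0.466 and 0.211).

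Per length of transcript, the ratio of Pdgfrb to Pdgfra was 0.706 to 1.72 at steady state, 2.54 to 2.79 at day 1, 1.52 to 1.61 at day 4 and 0.941 to 1.23 at day 7. The day 1 libraries had the highest ratios of all 13. Those of day 4 were within the range of steady state, though only because of PBS day 4 (1.72). Every day 4 library had a higher ratio than PBS day 1 and both PBS day 7 libraries (0.706 to 1.145). Pdgfrb passed the test at day 1 against steady state without each library in turn. It also passed with the tag family (adjusted p = 0.0047) or the thymocyte level (adjusted p = 0.0234) as a covariate, and missed it with only the libraries of those 2 conditions in the fit (adjusted p = 0.0604). Since Pdgfrb is also a pericyte gene, the level of 10 other pericyte and smooth muscle genes was set beside it. Their sum was 852.6 to 1674 CPM at steady state, 1229 to 1329 CPM at day 1, 1062 to 1273 CPM at day 4 and 799.5 to 1037 CPM at day 7, and 0 of the 10 passed the test at day 1 against steady state by edgeR (4 had an unadjusted p under 0.05, and 2 passed by DESeq2). The part of pericytes in the level of Pdgfrb was not tested. Of the 4 PDGF ligand genes, which encode the growth factors these receptors bind, 0 passed in any of the 6 comparisons by edgeR or DESeq2, and at most 1 in a comparison had an unadjusted p under 0.05. Their summed level was 114.2 to 200.3 CPM at steady state and 91.91 to 101.8 CPM at day 1.

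Dcn and Lum encode decorin and lumican, small leucine-rich proteoglycans that bind collagen fibrils. Dcn stood at 6140, 16066, 7643 and 16961 CPM at steady state and at 5185, 5334 and 5824 CPM at day 1. The steady-state libraries fell into a low and a high pair, and all 3 day 1 libraries lay below even the low pair. The log2 fold change was -1.10 (SE 0.38, 95% interval -1.91 to -0.29), which did not pass the test (adjusted p = 0.157). At day 4 Dcn was at 10201, 14421 and 12322 CPM, and at day 7 at 12842, 7764 and 9542 CPM, every library above all those of day 1. Those differences from day 1 did not pass either (log2 fold changes of 1.18 and 0.88, adjusted p = 0.199 and 0.188).

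Lum stood at 964.2, 4017, 936.8 and 2381 CPM at steady state and at 685.9, 1351 and 1097 CPM at day 1. The same 2 steady-state libraries were low as for Dcn, PBS day 1 and PBS day 7 replicate 1, and they overlapped with day 1. The log2 fold change was -0.99 (95% interval -2.03 to 0.05, adjusted p = 0.314). Lum was at 2050, 2499 and 1710 CPM at day 4 and at 2558, 1398 and 1697 CPM at day 7, above every day 1 library. Per length, Lum was 0.292 to 0.596 of Dcn at steady state and 0.316 to 0.604 at day 1, ranges that overlapped. Of the 12 other small leucine-rich proteoglycans, 3 fell from steady state to day 1 and 0 rose, with a median log2 fold change of -1.19. They were Omd (osteomodulin, log2 fold change of -2.35, adjusted p = 0.00709), Ogn (osteoglycin, -1.67, adjusted p = 0.0478) and Ecm2 (-1.55, adjusted p = 0.00814). Omd and Ecm2 rose from day 1 to day 4 (2.21 and 1.499, adjusted p = 0.0182 and 0.0186), and Omd, Ogn and Ecm2 rose from day 1 to day 7 (2.69, 1.63 and 1.22, adjusted p = 0.00435, 0.0321 and 0.0215).

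Gsn encodes gelsolin, which severs and caps actin filaments and is made in a cytoplasmic and a secreted form. Per length it was the most abundant of the 10 genes in every condition. Gsn stood at 17877, 7677, 20343 and 18454 CPM at steady state and at 3904, 3702 and 6775 CPM at day 1. PBS day 4 was the lowest steady-state library and still lay above all of day 1. Gsn fell by 1.75 on the log2 scale (SE 0.37, 95% interval -2.54 to -0.95, adjusted p = 0.0240), a 3.36-fold lower level. It was at 12065, 13568 and 11836 CPM at day 4 and at 11348, 15509 and 11864 CPM at day 7. Both times lay above every day 1 library and within the range of steady state, though only because of PBS day 4 (7677 CPM). Every library of both times lay below PBS day 1 and both PBS day 7 libraries (17877 to 20343 CPM). Gsn rose from day 1 to day 7 (log2 fold change of 1.43, SE 0.38, adjusted p = 0.0379), and its difference of day 4 from day 1 was 1.38 (adjusted p = 0.112; 0.00397 with DESeq2).

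The fall of Gsn at day 1 passed in 8 of the 14 alternative fits, with log2 fold changes of -2.08 to -1.52 and adjusted p-values of 2.92e-05 to 0.175. It missed the threshold without PBS day 7 replicate 1 (adjusted p = 0.0918), PBS day 7 replicate 2 (0.0686), day 1 replicate 1 (0.121) or day 1 replicate 2 (0.111). With the thymocyte level as a covariate the adjusted p was 0.0862, and with only those 2 conditions in the fit it was 0.175. Of the 6 other genes of the gelsolin family, Scin (scinderin) fell at day 1 against steady state (log2 fold change of -1.29, adjusted p = 0.0404) and was higher at day 7 than at day 1 (1.10, adjusted p = 0.0475). Capg, which caps actin filaments, was lower at day 7 than at day 1 (-1.24, adjusted p = 0.0319).

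The set of RefSeq (GRCm38.p6) start windows used here holds 3 for Gsn. They are shown because Gsn was the most abundant gene and fell at day 1, while gene counts do not say which start was used. Each window runs from 250 bases before to 50 bases after the start. Capitals mark CCAAT boxes (CCAAT) and GC boxes (GGGCGG), searched on both strands.
Gsn start 1, chr2:35256109-35256408 (+): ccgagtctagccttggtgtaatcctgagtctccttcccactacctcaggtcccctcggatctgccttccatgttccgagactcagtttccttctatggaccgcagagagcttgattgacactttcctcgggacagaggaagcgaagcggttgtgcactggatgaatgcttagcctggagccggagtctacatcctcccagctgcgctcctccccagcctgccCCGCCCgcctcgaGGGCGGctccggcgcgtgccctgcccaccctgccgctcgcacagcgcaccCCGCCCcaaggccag
Gsn start 2, chr2:35266494-35266793 (+): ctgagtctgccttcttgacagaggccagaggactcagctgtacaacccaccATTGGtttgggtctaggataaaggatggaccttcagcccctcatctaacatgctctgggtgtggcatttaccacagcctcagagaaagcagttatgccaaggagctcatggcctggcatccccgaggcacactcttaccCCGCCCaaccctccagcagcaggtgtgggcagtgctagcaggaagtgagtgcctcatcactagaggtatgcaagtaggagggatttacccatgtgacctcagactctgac
Gsn start 3, chr2:35282130-35282429 (+): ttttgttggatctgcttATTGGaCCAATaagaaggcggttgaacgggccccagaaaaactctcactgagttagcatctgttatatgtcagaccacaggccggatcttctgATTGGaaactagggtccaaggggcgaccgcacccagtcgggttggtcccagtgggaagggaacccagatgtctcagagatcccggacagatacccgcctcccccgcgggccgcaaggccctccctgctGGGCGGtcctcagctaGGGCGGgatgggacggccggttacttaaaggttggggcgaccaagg
The first window held 3 GC boxes and 63.7% G and C, the second 1 CCAAT box and 1 GC box, and the last 3 CCAAT boxes and 2 GC boxes. Of all 32851 windows of the same length, 37.4% held a CCAAT box and 35.7% a GC box, and the median content of G and C was 52.7%. None of the 3 held a TATA box (TATAAA, in 13.6% of all windows), an AP-1 site (TGANTCA, 7.81%), a STAT site (TTCNNNGAA, 8.3%) or a CArG box (1.63%).

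Among the capsFB genes, Clec3b passed the test at day 1. Clec3b encodes tetranectin, a secreted lectin that binds plasminogen. It stood at 174.1, 376.3, 258.8 and 535.7 CPM at steady state and at 87.25, 114.7 and 139.3 CPM at day 1. All 3 day 1 libraries lay below all 4 of steady state. Clec3b fell by 1.56 on the log2 scale (SE 0.38, 95% interval -2.37 to -0.75, adjusted p = 0.0480). It was at 245.9, 353.3 and 277.9 CPM at day 4 and at 483.9, 239.5 and 289.6 CPM at day 7, above every day 1 library and inside the range of steady state. Clec3b rose from day 1 to day 7 (log2 fold change of 1.57, SE 0.39, adjusted p = 0.0291), and its difference of day 4 from day 1 was 1.36 (adjusted p = 0.124; 0.0269 with DESeq2).

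The call at day 1 was close to the threshold. It passed in 5 of the 14 alternative fits (adjusted p-values of 0.00398 to 0.209, log2 fold changes of -2.04 to -1.25). Of the fits without 1 library it passed only without PBS day 1 (adjusted p = 0.0217). It missed without PBS day 4 (0.0603), PBS day 7 replicate 1 (0.0979), PBS day 7 replicate 2 (0.129) or day 1 replicate 1 (0.209), 2 (0.145) or 3 (0.0809). With the tag family as a covariate the log2 fold change was -1.38 and the adjusted p 0.0688.

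Dpp4 and Pi16 were the capsFB genes whose levels went most closely together over all libraries. Dpp4 encodes CD26, a peptidase of the cell surface that is also found on T-lineage cells, and Pi16 encodes a peptidase inhibitor that marks adventitial FBs of many organs. Dpp4 stood at 134.3, 235.9, 421.5 and 420.9 CPM at steady state and at 197.0, 86.98 and 126.9 CPM at day 1. PBS day 1 was the only steady-state library within the day 1 range, and the log2 fold change was -1.15 (95% interval -1.96 to -0.34, adjusted p = 0.145). Without PBS day 1 it was -1.34 and passed the test (adjusted p = 0.0469). Dpp4 was at 213.8, 244.2 and 219.3 CPM at day 4 and at 404.6, 410.2 and 335.4 CPM at day 7. The 3 times after TBI did not overlap with each other, and Dpp4 rose from day 1 to day 7 (log2 fold change of 1.49, SE 0.40, adjusted p = 0.0385). Of its differences over the shorter steps, that of day 4 from day 1 was 0.72 (adjusted p = 0.449) and that of day 7 from day 4 was 0.76 (adjusted p = 0.321). Within day 7 it was 404.6 CPM in the library with 272.7 CPM of thymocyte markers, 335.4 CPM in the library with 2764 CPM and 410.2 CPM in the library with 6501 CPM. With the thymocyte level as a covariate the difference of day 7 from day 1 was 1.496 and did not pass (adjusted p = 0.208).

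Pi16 stood at 1002, 1289, 1640 and 1657 CPM at steady state and at 1090, 556.9 and 822.4 CPM at day 1. PBS day 1 was again within the day 1 range. The log2 fold change was -0.76 (95% interval -1.39 to -0.14, adjusted p = 0.201). Pi16 was at 1207, 1638 and 948.5 CPM at day 4 and at 1460, 1585 and 1329 CPM at day 7. The day 7 libraries lay above those of day 1, with a log2 fold change of 0.82 that did not pass (adjusted p = 0.117). Over the 13 libraries the log2 levels of Pi16 and Dpp4 had a Pearson's r of 0.911, and 0.844 after the mean of each condition was taken out. The first value is the highest of the 10 pairs of capsFB genes. Both are descriptions, since the points share libraries and depth.

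The start windows of these genes are shown because their levels went together. Dpp4 and Pi16 have 1 window each in the RefSeq set used, with capitals for a match to TATAAA in Dpp4 and to CCAAT in Pi16. Such matches, on either strand, were in 13.6% and 37.4% of all windows.
Dpp4 start, chr2:62412182-62412481 (-): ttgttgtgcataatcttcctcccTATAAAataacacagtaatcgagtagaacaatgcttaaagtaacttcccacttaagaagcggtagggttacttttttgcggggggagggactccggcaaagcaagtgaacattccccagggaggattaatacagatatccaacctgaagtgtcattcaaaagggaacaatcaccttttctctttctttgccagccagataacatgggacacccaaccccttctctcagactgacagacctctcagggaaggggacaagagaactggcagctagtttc
Pi16 start, chr17:29318632-29318931 (+): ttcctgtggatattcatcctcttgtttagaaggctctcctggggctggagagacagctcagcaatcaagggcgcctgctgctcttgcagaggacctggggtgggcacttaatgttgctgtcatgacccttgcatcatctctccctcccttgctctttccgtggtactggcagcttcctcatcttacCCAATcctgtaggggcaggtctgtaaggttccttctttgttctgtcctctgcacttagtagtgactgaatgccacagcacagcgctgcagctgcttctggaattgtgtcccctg
Counted in bases from the start, the match in Dpp4 begins at -227 and that in Pi16 at -64. The windows shared none of the 6 motifs searched.

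Dpt and Mfap5 encode matrix proteins, dermatopontin, which binds decorin, and a glycoprotein of the microfibrils that carry elastin. Dpt stood at 364.9, 1429, 318.4 and 1445 CPM at steady state and at 258.0, 406.3 and 296.7 CPM at day 1. The steady-state libraries fell into the same low and high pairs as for Dcn and Lum, and the low pair overlapped with day 1. The log2 fold change was -1.47 (95% interval -2.55 to -0.40, adjusted p = 0.155). Dpt was at 494.8, 598.6 and 473.8 CPM at day 4 and at 789.5, 497.4 and 618.5 CPM at day 7. All 6 of these libraries lay above day 1, and all lay in the gap between the low and the high pair of steady state.

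Mfap5 stood at 247.7, 1659, 328.5 and 1178 CPM at steady state and at 717.5, 667.5 and 509.4 CPM at day 1. It had the widest spread at steady state of the 10 genes, with a highest level 6.70 times the lowest, and day 1 lay between its low and its high pair. The log2 fold change was -0.43 (95% interval -1.60 to 0.74, adjusted p = 0.728), and its sign turned without PBS day 4 (0.11) or with the tag family as a covariate (0.06). Mfap5 was at 615.0, 684.8 and 525.1 CPM at day 4 and at 1045, 475.4 and 790.3 CPM at day 7, and overlapped with day 1 at both times. Of 15 other genes of microfibrils and elastic fibres, 0 passed the test in any of the 6 comparisons by edgeR, while at most 3 in a comparison had an unadjusted p under 0.05 and at most 1 passed by DESeq2. Their median log2 fold change at day 1 against steady state was -0.60.

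**Figure D2:**
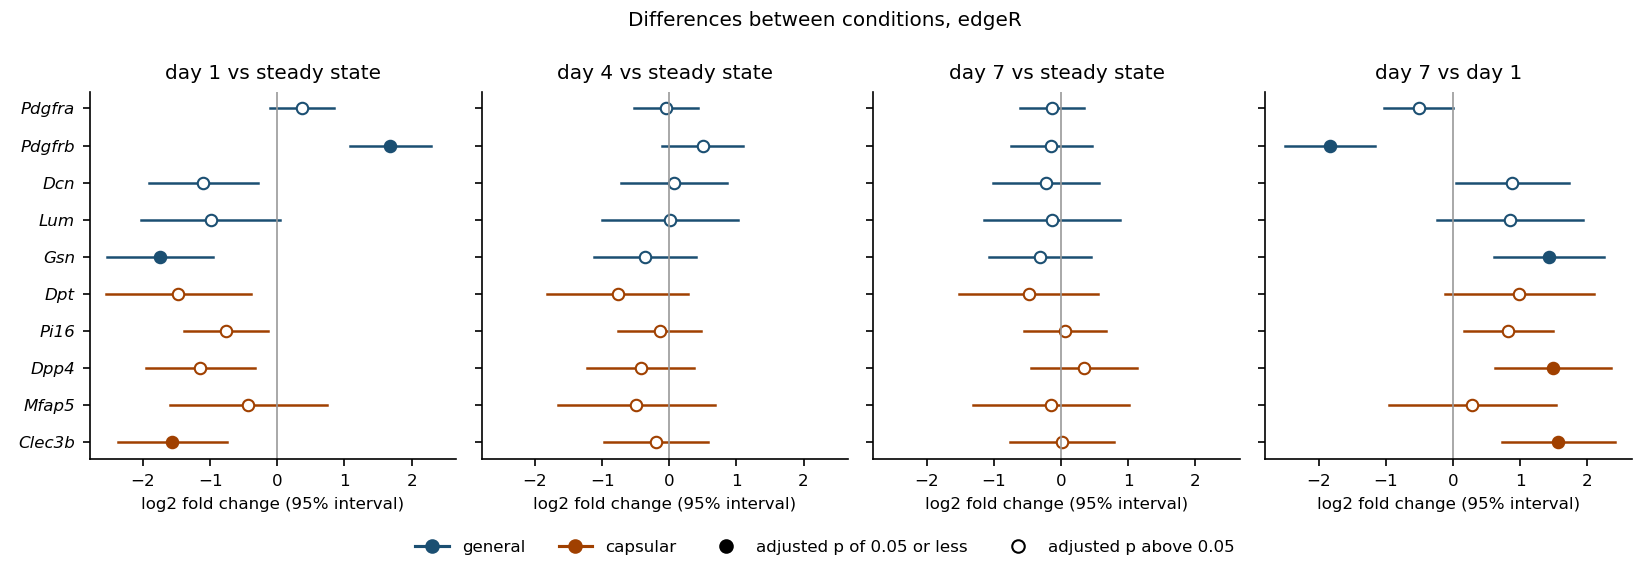
Log2 fold changes of the 10 genes in 4 comparisons, with 95% intervals from edgeR; filled points passed the test at an adjusted p of 0.05. At day 1 Pdgfrb (1.68) was higher and Gsn (-1.75) and Clec3b (-1.56) were lower than at steady state, and the intervals at days 4 and 7 against steady state include 0 for all 10 genes.

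Taking the 10 genes as a group, 3 passed the test at day 1 against steady state, Pdgfrb higher and Gsn and Clec3b lower. Of all genes tested 2.35% passed, 1.68% higher and 0.671% lower. The log2 fold change was below 0 for 8 of the 10 genes and for all 5 capsFB genes, with a median of -1.05, beside -0.10 for all genes tested. The libraries of both conditions did not overlap for 4 of the 10 genes (Pdgfrb, Dcn, Gsn and Clec3b), beside 15.8% of all genes. The summed CPM of the 10 genes came to 2.79 to 4.43% of the common library size at steady state and 1.43 to 1.75% at day 1. Because of the TMM factors, these values are not shares of the counts of a library.

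At day 4 against steady state 0 of the 10 genes passed by edgeR, 0 had an unadjusted p under 0.05 and 0 passed by DESeq2. Of all 19984 genes tested 0.29% passed by edgeR, 2602 had an unadjusted p under 0.05 and 645 passed by DESeq2. No gene of the 10 had separate libraries, beside 14.7% of all genes, and the median log2 fold change was -0.17, beside -0.13. At day 7 against steady state 0 again passed by edgeR, 0 had an unadjusted p under 0.05 and 0 passed by DESeq2, beside 0.005% of all genes by edgeR. Of all genes tested 2691 had an unadjusted p under 0.05 and 1081 passed by DESeq2. No gene of the 10 had separate libraries, beside 7.49% of all genes, and the median was -0.14, beside 0.00. The intervals were wide. That of Mfap5 at day 7 reached from -1.31 to 1.01 and that of Lum from -1.15 to 0.88, while that of Pdgfra, the narrowest, reached from -0.62 to 0.34. All 3 comparisons with steady state use the same 4 libraries.

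Between day 1 and day 4, 0 of the 10 genes passed by edgeR, 4 had an unadjusted p under 0.05 (Pdgfrb, Dcn, Gsn and Clec3b) and 3 passed by DESeq2 (Pdgfrb, Gsn and Clec3b). Of all 19984 genes tested 1.43% passed by edgeR, 2729 had an unadjusted p under 0.05 and 960 passed by DESeq2. The libraries did not overlap for 8 of the 10 genes, 6 of them above and 2 below at day 4, beside 26.3% of all genes, and the median log2 fold change was 0.71, beside -0.10. Between day 1 and day 7, 4 of the 10 genes passed, with Gsn, Dpp4 and Clec3b higher and Pdgfrb lower at day 7. Of all genes tested 8.13% passed, 3.68% higher and 4.45% lower. The libraries did not overlap for 9 of the 10 genes, all but Mfap5, beside 27.5% of all genes, and the median was 0.87, beside 0.05. These comparisons share the day 1 libraries with each other and with that of day 1 against steady state. Between day 4 and day 7, 0 passed by edgeR, 0 had an unadjusted p under 0.05 and 0 passed by DESeq2, beside 3.9% of all genes by edgeR. Of all genes tested 3735 had an unadjusted p under 0.05 and 1919 passed by DESeq2. Pdgfrb, lower at day 7, and Dpp4, higher at day 7, had separate libraries, beside 26.2% of all genes.

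The calls between day 1 and day 7 moved with the fit. Pdgfrb passed in 13 of 15 alternatives, Gsn in 7, Clec3b in 6 and Dpp4 in 6. In the fits that left out 1 library, Pdgfrb passed in 6 of 6, Gsn in 2, Dpp4 in 1 and Clec3b in 0. Gsn missed the threshold without day 1 replicate 1 (adjusted p = 0.116), day 1 replicate 2 (0.120), day 7 replicate 2 (0.138) or day 7 replicate 3 (0.0958). Dpp4 passed without day 1 replicate 1 (0.0489), and missed without day 1 replicate 2 (0.127), day 1 replicate 3 (0.113), day 7 replicate 1 (0.0646), day 7 replicate 2 (0.123) or day 7 replicate 3 (0.0954). Clec3b missed without day 1 replicate 1 (0.106), 2 (0.0826) or 3 (0.0617) and without day 7 replicate 1 (0.0794), 2 (0.0544) or 3 (0.0751). Thymocyte markers differed between these times too, with 14 of 14 higher at day 7. With the thymocyte level as a covariate, Clec3b passed (log2 fold change of 2.55, adjusted p = 0.0184), while Pdgfrb (-1.17, adjusted p = 0.177), Gsn (1.005, adjusted p = 0.404) and Dpp4 (1.496) did not, and 364 of all genes passed beside 1625 without the covariate. Without the 2 day 7 libraries with the most thymocyte RNA, 0 of the 10 genes and 0 of all genes tested passed, and the log2 fold changes were -1.41 for Pdgfrb, 1.28 for Gsn, 2.13 for Clec3b and 1.62 for Dpp4, in the same direction as with all libraries. That fit leaves 1 library at day 7 and takes it to vary like the other groups.

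The low and the high pair of steady-state libraries went with the column tags. For Pdgfrb, Dcn, Lum, Dpt, Mfap5 and Clec3b, the libraries with neither tag start (PBS day 1 and PBS day 7 replicate 1) were the lower pair, and those of k3 and kk the higher pair. Within the family with neither start, which held 2 libraries of steady state and 2 of day 1, the log2 ratio of day 1 to steady state was 1.90 for Pdgfrb, -1.87 for Gsn, -1.38 for Dpp4, -0.94 for Pi16 and -0.77 for Clec3b. It was -0.31 for Dcn, 0.04 for Dpt, 0.37 for Lum and 1.03 for Mfap5. Within kk, with 1 library each, it was 1.91 for Pdgfrb, -2.24 for Gsn, -1.10 for Dpp4, -0.60 for Pi16 and -2.62 for Clec3b, and -1.71 for Dcn, -2.49 for Dpt, -1.80 for Lum and -0.72 for Mfap5. Pdgfrb, Gsn, Dpp4, Pi16, Clec3b and Dcn thus had the same sign within both families, while Dpt, Lum and Mfap5 did not. For Pdgfra the ratio was 0.04 within the family with neither start and 0.76 within kk, also of the same sign. These values have no test, and what the tags stand for was not tested.

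**Figure D3:**
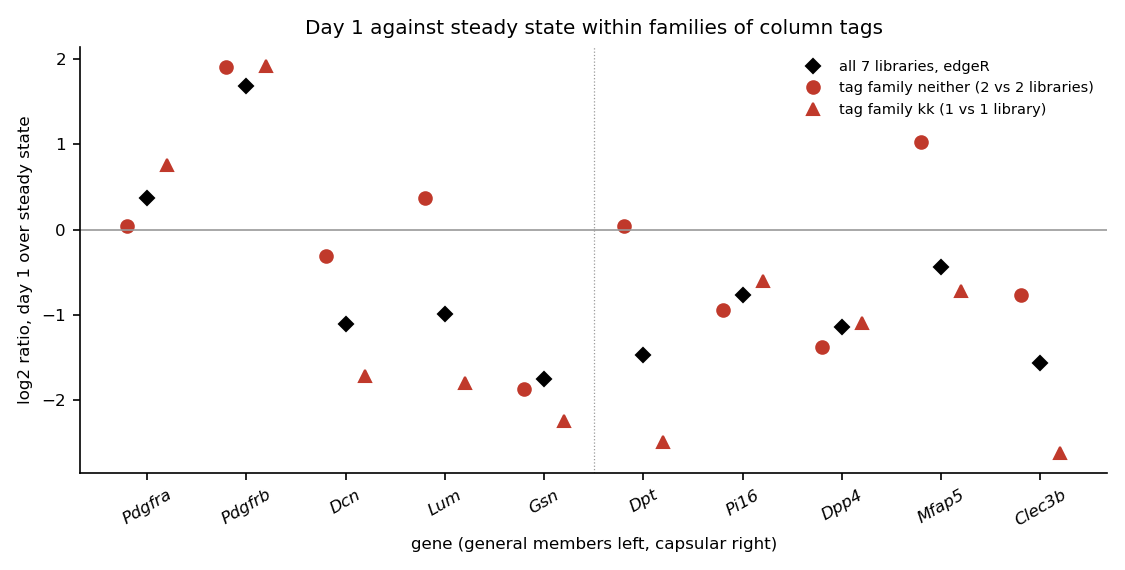
Log2 ratio of day 1 to steady state for each gene, over all 7 libraries (diamonds, edgeR) and within the families of column tags that held both conditions (circles and triangles). Pdgfrb and Gsn lie close together in all 3 (Pdgfrb 1.68, 1.90 and 1.91), while Dpt spans from 0.04 to -2.49.

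Across conditions, the order of the levels per length (RPKM, the CPM divided by the exonic length in kilobases) put Gsn highest, Dcn next and Lum after it at every time. At steady state the means were 5096 ± 1807 RPKM for Gsn, 2005 ± 959.4 for Dcn and 847.6 ± 596.5 for Lum (SD, n = 4), and the libraries of each overlapped with those of the next. At days 1, 4 and 7 they did not overlap, with Gsn at 1518 ± 544.4, Dcn at 933.1 ± 57.26 and Lum at 426.7 ± 137.0 RPKM at day 1 (SD, n = 3). Then came Dpt (515.8 ± 366.9), Pi16 (350.4 ± 78.63), Clec3b (339.0 ± 158.0) and Mfap5 (237.7 ± 190.1 RPKM) at steady state, each within the spread of its neighbours. Pdgfrb (79.20 ± 26.08) and Pdgfra (74.23 ± 10.19) were close together and overlapped, and Dpp4 was the lowest (47.98 ± 22.55 RPKM). At day 1 Pdgfrb, at 254.4 ± 61.31 RPKM, stood above all 5 capsFB genes by its mean, at rank 4, and it was back at rank 8 at day 4 (111.7 ± 9.977) and day 7 (71.58 ± 18.35). Dpp4 was the lowest at every time, and its libraries lay apart from those of Pdgfra, the next in order, at days 1 and 4 and not at day 7 or steady state.

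The balance of capsFB against general FB genes was taken as the difference of their mean log2(CPM + 0.5). It was -2.66, -1.91, -2.24 and -1.74 in the steady-state libraries, -2.83 to -2.63 at day 1, -2.54 to -2.38 at day 4 and -1.96 to -1.85 at day 7. The 3 times after TBI did not overlap with each other, and steady state, at its widest, overlapped with all of them. The general genes did not move together. From day 1 to day 7 the log2 fold change was 0.88 for Dcn, 0.85 for Lum and 1.43 for Gsn, but -0.51 for Pdgfra and -1.83 for Pdgfrb. The capsFB genes ran from 0.29 (Mfap5) to 1.57 (Clec3b), a range that held Dcn, Lum and Gsn and neither PDGF receptor. The balance compares sets of genes within a library, so library size has little bearing on it. Gsn over Dcn, per length, was 5.38, 0.884, 4.92 and 2.01 at steady state, so in PBS day 4 alone was Gsn below Dcn. It was 1.28 to 2.15 at day 1, 1.74 to 2.19 at day 4 and 1.63 to 3.69 at day 7.

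**Figure D4:**
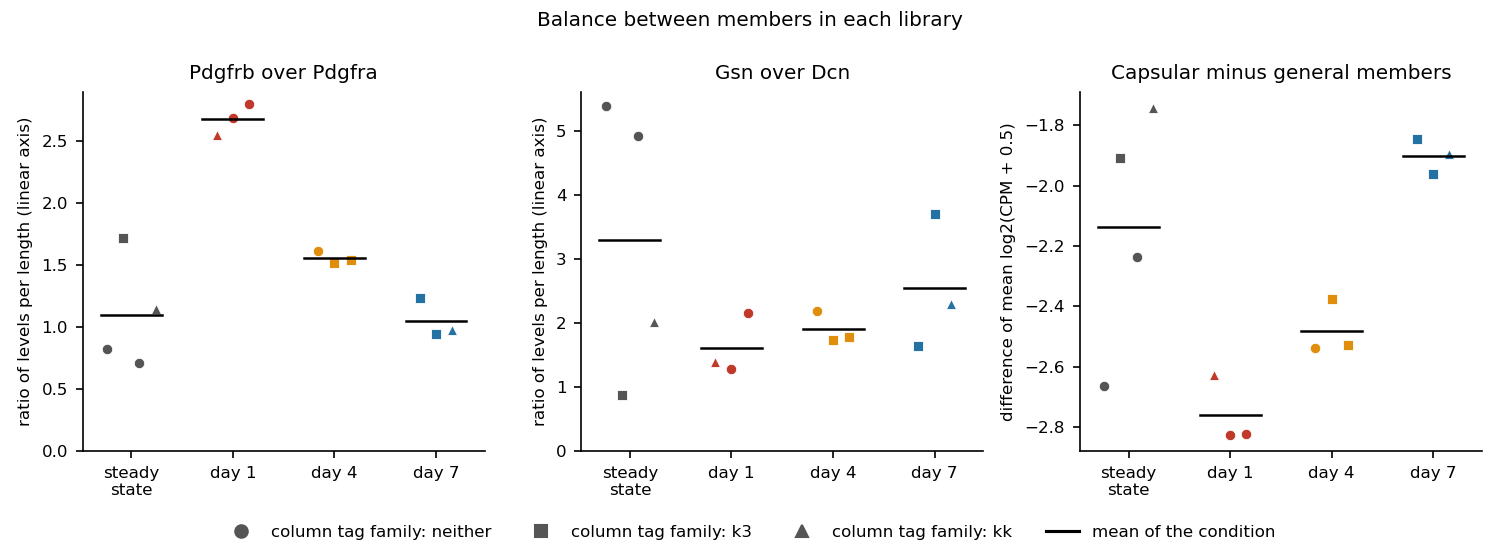
Ratio of Pdgfrb to Pdgfra, ratio of Gsn to Dcn (levels per length, linear axes) and capsFB minus general genes (difference of mean log2(CPM + 0.5)) in each library, with bars for condition means. Pdgfrb over Pdgfra is 2.54 to 2.79 at day 1 and at most 1.72 elsewhere, and the panel on the right climbs from -2.76 on average at day 1 to -1.90 at day 7. The general genes in that panel include Pdgfrb and Pdgfra, whose levels were lower at day 7 than at day 1.

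Within conditions the genes did not all vary alike. After the mean of each condition was taken out of the log2 levels, Dcn, Lum, Dpt, Mfap5 and Clec3b varied together over the 13 libraries, with Pearson's r of 0.862 for Dcn and Lum, 0.933 for Lum and Dpt, 0.931 for Dpt and Mfap5 and 0.920 for Dcn and Clec3b. Pdgfrb varied with them, with r of 0.876 for Mfap5, 0.737 for Dcn, 0.687 for Dpt, 0.661 for Lum and 0.542 for Clec3b. With these 5 genes, Pi16 had r of -0.049 (Lum) to 0.270 (Dcn and Clec3b) and Dpp4 -0.053 (Lum) to 0.384 (Clec3b), while their r with Pdgfra was 0.622 and 0.645. Gsn had r of -0.669 (Mfap5) to -0.124 (Clec3b) with the 5 genes and -0.698 with Pdgfrb. The levels of capsFB genes were positively related in 10 of 10 pairs (median r of 0.585 over the libraries, 0.329 within conditions), and those of general genes in 4 of 10 pairs (median -0.29 and -0.04). These are descriptions over libraries that share depth, tags and conditions, with no test.

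**Figure D5:**
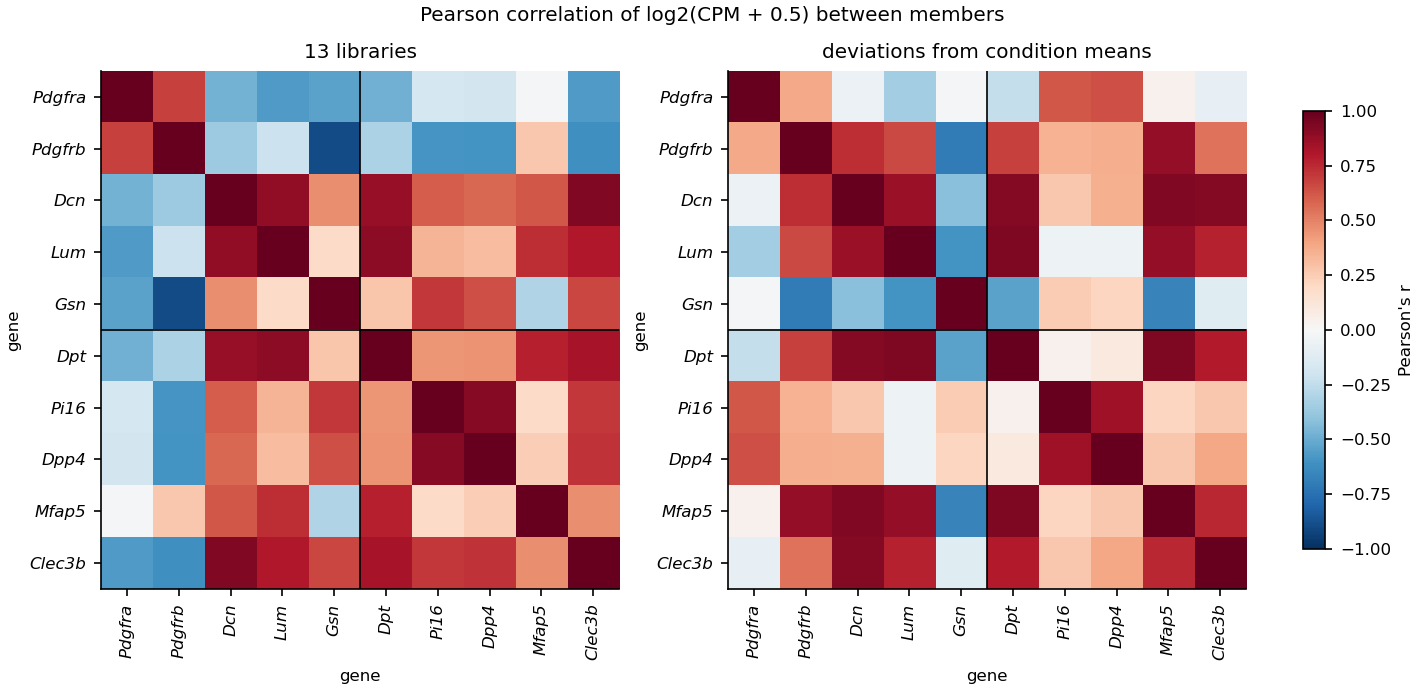
Pearson's r of log2(CPM + 0.5) for each pair of the 10 genes, over 13 libraries (left) and for deviations from condition means (right), on a scale from -1 (blue) to 1 (red); lines part general from capsFB genes. Dcn, Lum, Dpt, Mfap5 and Clec3b form a red group on the right, Pi16 and Dpp4 a pair (0.844), and Gsn is blue against Pdgfrb (-0.698).

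The genes most like each group were looked for among 11449 genes with a mean of at least 5 CPM, by Pearson's r with the mean log2 level of the 5 genes over the 13 libraries. For the general genes they were C1qtnf1 (0.977), Pygl (0.943), Arsa (0.935), Dync2li1 (0.931) and Agt (0.930). For the capsFB genes they were Ogn (0.954), Fhl1 (0.936), Nid1 (0.926), Igfbp6 (0.925) and C1qtnf7 (0.925). Ogn is a small leucine-rich proteoglycan like Dcn and Lum, and Nid1 encodes a protein of basement membranes.

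Other FB genes were counted for comparison. Of 16 other capsFB or adventitial genes, 1 rose from steady state to day 1 and 0 fell, with a median log2 fold change of -0.25. The gene was Ly6c1 (1.76, adjusted p = 0.0193), a surface antigen that endothelial cells also carry, and it fell from day 1 to day 7 (-1.75, adjusted p = 0.0189). Sema3c, a secreted semaphorin, rose from day 1 to day 7 (1.45, adjusted p = 0.0211). Of 16 other general FB genes, Pdpn (podoplanin, 1.83, adjusted p = 0.0312) rose and Fap (fibroblast activation protein, a peptidase related to Dpp4, -1.29, adjusted p = 0.00918) fell at day 1, with a median of -0.32. From day 1 to day 7 Pdpn fell (-1.67, adjusted p = 0.0371) and Fap rose (1.43, adjusted p = 0.00648). At day 4 against day 1 Fap rose (1.36, adjusted p = 0.0139). Thy1, at a mean of 4.785 CPM at day 4 and 21.65 CPM at day 7, rose between those times (2.17, adjusted p = 0.0245). Of the 6 other genes of the DPP family of peptidases, Dpp7 was higher at day 4 than at day 1 (1.41, adjusted p = 0.0335), the only call by edgeR in the 6 comparisons, where at most 3 had an unadjusted p under 0.05 and at most 2 passed by DESeq2.

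Of 10 genes of medullary FBs and of an intermediary FB subset (intFBs), 2 fell and 0 rose at day 1 against steady state, with a median log2 fold change of -0.62. Inmt and Gpx3, both in this list, are the genes by which the study names intFBs. The 2 that fell were Penk (proenkephalin, -1.57, adjusted p = 0.0468) and Postn (periostin, a matrix protein, -1.34, adjusted p = 0.0266). From day 1 to day 4, Inmt (3.17, adjusted p = 0.0274) and Penk (1.93, adjusted p = 0.0277) rose. From day 1 to day 7, Inmt (2.18, adjusted p = 0.0476), Penk (1.68, adjusted p = 0.0215) and Ptn (pleiotrophin, a growth factor, 1.55, adjusted p = 0.0150) rose. Apod fell from day 4 to day 7 (-2.22, adjusted p = 0.0142). At day 4 against steady state, 0 of these 10 genes passed by edgeR (4 had an unadjusted p under 0.05, and 1 passed by DESeq2), and at day 7 0 passed by either tool (0 with an unadjusted p under 0.05). For the 16 other capsFB genes these counts were 0 at both times. For the 16 other general genes they were 0 at day 4, and at day 7 0 passed by edgeR, 1 had an unadjusted p under 0.05 and 1 passed by DESeq2. No test was made of whether capsFB genes differed from those of medullary FBs and intFBs in their change.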

How the data were processed

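Bulk RNA-seq counts of 13 libraries of CD45- thymic stroma cells were analysed. The scRNA-seq, imaging and other data of the study were not used here. Per the labels and the study's methods, the authors ran Trimmomatic 0.38 on paired-end reads, STAR 2.7.0e against GRCm38.p5 (mm10, GENCODE M12) and featureCounts 1.6.3 at default settings. The counts they deposited are whole numbers for each gene in each library and were not normalized. With default settings, strand is not used and reads that fall on more than 1 gene are left out. The table also gives the exonic length of each gene, used for levels per length. Every library column was used.

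Conditions came from the labels. The steady-state columns carry none of the label replicate numbers and were used as a group. The 10 genes, the other gene lists and the tests were chosen with earlier results of these data known. Other list genes are named where they passed a test, up to the 4 largest changes of a list. Thymocyte, erythroid and neutrophil genes are instead given as summed levels and counts. Symbols came from GENCODE M21, in which 53274 of 53379 identifiers had one. Promoter windows came from a set drawn from RefSeq (GRCm38.p6), of which 7 windows for 5 of the 10 genes were used (Pdgfra, Gsn, Dpt, Pi16 and Dpp4). For the 10 genes, windows on chr18, where Pdgfrb lies, were left out. The set held none for Dcn, Lum, Mfap5 and Clec3b, which does not mean that RefSeq gives them no start.

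The comparisons used edgeR 4.0.16 (R 4.3.3) on all 13 libraries at once, with a term for condition, TMM normalization, filterByExpr() by condition (minimum count of 10) and the quasi-likelihood F-test, whose common dispersion was 0.177. A gene was called where its p-value, adjusted by Benjamini-Hochberg over all 19984 genes, was 0.05 or less. Standard errors and 95% intervals came from the log2 fold change and its F statistic. Correlations and scores used log2(CPM + 0.5). Steady-state libraries were examined with Dixon's ratio for 12 values, and none was past the critical value of 0.829. The highest was 0.805, for Gsn in PBS day 4. The ratio looks for 1 outlying value, so it cannot flag a split into a low and a high pair (0.041 for Dpt). The fit was tested on simulated counts of 19984 genes: for day 1 against steady state, 52% of genes changed 4-fold and 1% of those changed 2-fold were called, for day 4 32% and 2%, and for day 7 44% and 1%.

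The alternatives were DESeq2 1.42.0, RLE normalization, no filter, at least 10 counts in every library, only the 2 conditions compared, the tag family or the thymocyte score (mean log2 level of its 14 markers) as a covariate, the replicate number as a block, levels per length without TMM factors, and each library left out in turn. A fit without the 2 day 7 libraries with the most thymocyte RNA was chosen after seeing the data. Python 3.11.15 with numpy 2.4.6, pandas 2.3.3 and matplotlib 3.10.9 made tables and plots.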

Additional observations from a re-analysis of the deposited data

How the results depend on the processing

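Of 870 log2 fold changes of the 10 genes under alternatives, 747 kept their direction and their side of the threshold, 44 kept the direction and missed the threshold, 5 kept the direction and newly passed it, and 74 had the other sign with neither value past the threshold. No value past the threshold changed sign. Of the 74, 50 were differences of day 4 or day 7 from steady state, and 14 came from the thymocyte covariate. Those values reached 1.86 in size under the alternative and 0.64 as reported.

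At day 1 against steady state, 3 genes of the 10 were called, 0 with only the 2 conditions in the fit, and 1 to 4 with 1 library left out. Day 7 against day 1 gave 4, and 2 with at least 10 counts in every library, 2 with the tag family and 1 with the thymocyte score as a covariate, 1 to 2 with 1 library left out, and 0 without the 2 day 7 libraries with the most thymocyte RNA. All genes called in that comparison were 1625, 364 with the thymocyte score and 0 without those 2 libraries. Day 4 against day 1 gave 0, and 3 with DESeq2 and 1 with the thymocyte covariate. The counts of days 4 and 7 against steady state and of day 7 against day 4 were 0 in every fit run.

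Counts over all genes moved more. They ran from 228 to 1399 (469 as reported) at day 1 against steady state, 19 to 645 (58) for day 4, 0 to 1081 (1) for day 7, 56 to 960 (285) for day 4 against day 1, 0 to 2940 (1625) for day 7 against day 1 and 0 to 1919 (779) for day 7 against day 4, with DESeq2 at the upper end of each. RLE normalization moved the median of all genes by at most 0.08.

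Same-numbered libraries after TBI deviated from their condition means with a mean r of -0.47 (days 1 and 4), -0.14 (days 1 and 7) and 0.08 (days 4 and 7). For libraries of different numbers it was 0.20, 0.08 and -0.04. Deviations from a mean of 3 libraries depend on each other, so these values cannot decide whether the replicate numbers pair the libraries. With the replicate block, 3 of the 10 genes were called at day 7 against day 1, 0 at day 4 against day 1 and 0 at day 7 against day 4, with 640, 56 and 0 of all genes. No paired fit was run against steady state, where the columns carry the day and replicate of a PBS control and not the numbers of the labels. Levels per length moved by less than 1 SD without TMM factors in 37 of 40 cases, Pdgfra, Gsn and Dpp4 at day 4 being the others, and Dpt and Pi16 changed places in the order at day 7.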

Other observations

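Markers of other stromal cells were measured beside the FB genes. Of 6 mesothelial, 6 Schwann and 6 adipocyte genes, 0 passed the test in any of the 6 comparisons by edgeR. In a comparison, at most 1, 5 and 2 of them had an unadjusted p under 0.05, and at most 0, 2 and 0 passed by DESeq2. The mesothelial sum was 693.4 to 5300 CPM at steady state, with PBS day 1 the lowest, and 1742 to 2433 CPM at day 1. Of 10 TEC genes, Krt5 (keratin 5, log2 fold change of -2.61, adjusted p = 0.0135) and H2-Aa (a class II gene, -2.13, adjusted p = 0.0438) fell from day 4 to day 7. Of the pericyte and smooth muscle genes, Tagln (transgelin) fell from day 1 to day 4 (-1.93, adjusted p = 0.0356) while Abcc9, a channel subunit of pericytes, rose (1.18, adjusted p = 0.0109). Kcnj8, which encodes the channel it forms part of, fell from day 4 to day 7 (-1.13, adjusted p = 0.0434). Tagln was also lower at day 7 than at day 1 (-1.67, adjusted p = 0.0265). Each adjusted p is from edgeR.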
